A study of Mus musculus with 42 samples.

Results

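The expression of 10 marker genes of T cells and cytotoxic lymphocytes was examined in whole liver RNA of female APOE*3-Leiden mice. The genes were Cd3d, Cd3e, Cd3g, Cd4, Cd8a, Cd8b1, Nkg7, Cxcr6, Gzma and Lck, taken by symbol from the 54446 annotated genes in the count table, and all 10 were found. RNA sequencing was performed on 42 livers at week 32, with 1 library per mouse. All mice carried the human APOE*3-Leiden transgene, which makes mice hyperlipidemic and responsive to lipid-lowering drugs, and no non-transgenic group was included. The group Chow32w consisted of 10 mice on chow, the healthy reference. The group WTD32w consisted of 16 mice on a Western-type diet (WTD) with 15% cocoa butter, 40.5% sucrose and 1% cholesterol by weight, to which 0.05% sodium cholate was added from week 22. The group WTD&Atorvastatin32w consisted of 16 mice on the same diet and cholate with atorvastatin, an inhibitor of cholesterol synthesis, at 3.0 mg/kg/day and, from week 5, 4.5 mg/kg/day. Mice in both WTD groups were 8 to 14 weeks old when they started a run-in on the diet of 3 weeks. The age of the chow-fed mice was not given separately, and only the WTD-fed mice were matched to each other before treatment. The chow-fed mice carry another identifier prefix in the labels than the mice of both WTD groups, so that the diet cannot be told apart from anything else that this prefix may mark.

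T cells recognise peptides on major histocompatibility complex (MHC) molecules through a receptor whose signal is carried by the CD3 chains, and the coreceptors CD4 and CD8 bind MHC class II and class I and bring the kinase Lck to the receptor. Cytotoxic T cells and natural killer (NK) cells kill target cells by releasing granules that hold granzymes. The liver holds many such lymphocytes, and CXCR6, the receptor of the chemokine CXCL16, keeps T cells, natural killer T cells and innate lymphocytes in its sinusoids. In steatohepatitis these cells accumulate together with macrophages. Not all of these genes are exclusive to T cells, since Nkg7, Gzma, Lck and Cxcr6 are also expressed by NK cells or other innate lymphocytes, and in mice Cd4 and Cd8a are also expressed by subsets of dendritic cells.

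The 3 CD3 genes lie next to each other on chromosome 9 of GRCm38, within 40056 bases. Cd3g (chr9:44969572-44980431, minus strand) and Cd3d (chr9:44981786-44987339, plus strand) are transcribed away from each other with 1354 bases between them, and Cd3e (chr9:44998740-45009627, minus strand) begins on the far side of Cd3d. Cxcr6 (chr9:123806475-123811760, plus strand) lies on the same chromosome inside Fyco1, which is on the opposite strand and with which it shares no exon base. The 250 bases before the RefSeq start (GRCm38.p6) are shown for these 4 genes because the CD3 genes share a locus and Cxcr6 was, beside Cd4, the only gene called in any alternative below. The windows are chr9:44980432-44980681 for Cd3g, chr9:44981536-44981785 for Cd3d, chr9:45009612-45009861 for Cd3e and chr9:123806227-123806476 for Cxcr6, each written 5′ to 3′ on the strand of its gene. Capitals mark GGAA, the core that ETS family factors bind, or its reverse complement TTCC.
Cd3g: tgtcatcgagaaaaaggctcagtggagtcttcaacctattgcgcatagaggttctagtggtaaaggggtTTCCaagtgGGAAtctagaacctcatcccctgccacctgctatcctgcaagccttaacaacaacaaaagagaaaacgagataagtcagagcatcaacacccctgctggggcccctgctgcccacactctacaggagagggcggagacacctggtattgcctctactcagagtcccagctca
Cd3d: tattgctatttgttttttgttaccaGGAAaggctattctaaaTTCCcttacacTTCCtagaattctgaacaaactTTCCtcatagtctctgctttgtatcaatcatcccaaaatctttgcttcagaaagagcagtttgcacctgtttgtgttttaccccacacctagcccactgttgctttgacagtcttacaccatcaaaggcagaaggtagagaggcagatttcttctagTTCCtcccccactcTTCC
Cd3e: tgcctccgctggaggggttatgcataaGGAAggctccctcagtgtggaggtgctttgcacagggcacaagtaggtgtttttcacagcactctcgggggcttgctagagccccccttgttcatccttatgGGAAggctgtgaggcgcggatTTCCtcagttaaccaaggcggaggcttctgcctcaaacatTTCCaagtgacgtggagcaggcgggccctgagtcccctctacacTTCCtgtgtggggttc
Cxcr6: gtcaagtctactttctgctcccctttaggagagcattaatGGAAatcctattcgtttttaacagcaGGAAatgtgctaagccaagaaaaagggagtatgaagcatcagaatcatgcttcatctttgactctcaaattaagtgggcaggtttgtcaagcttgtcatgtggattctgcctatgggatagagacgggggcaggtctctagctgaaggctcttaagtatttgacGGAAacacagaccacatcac
The windows held 2 matches to GGAA or TTCC for Cd3g, 6 for Cd3d, 5 for Cd3e and 3 for Cxcr6. At least 1 such match occurred in all 9 windows available for 8 of the genes (Lck has 2 starts), but it also occurred in 93.4% of all 32851 mouse promoter windows of this length, at 2.91 matches on average. The exact letters TATAAA, 1 form of the TATA box, were found on neither strand of the 9 windows, as compared to 12.4% of all windows. Other forms of the box were not searched, such as TATATAAG, which the Gzma window holds. TGTGGT, the RUNX core, was found on either strand in 4 windows (Nkg7, Cxcr6, Gzma and the second start of Lck) as compared to 14% of all windows. CTTTGA, the TCF/LEF core, was found in 2 windows (Cd3d and Cxcr6) as compared to 13.8%, and the E-box CANNTG in 8 windows as compared to 66.2%.

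The other genes lie at chr6:71322788-71337494 (Cd8b1, plus strand), chr6:71373427-71379173 (Cd8a, plus strand, 35932 bases from Cd8b1), chr6:124864692-124888221 (Cd4, minus strand), chr7:43437073-43438249 (Nkg7, plus strand), chr13:113093825-113100981 (Gzma, minus strand) and chr4:129548344-129573641 (Lck, minus strand). All 10 are protein-coding. Cd3e shares 135 exon bases, 3.31% of its exon length, with the antisense gene Gm48719, and Lck shares 25 bases, 0.854%, with Mir8119. The other 8 share no exon base with another gene.

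Total counts on genes ranged from 15661381 to 36224054 per library, with a median of 20405093.5 in chow-fed mice, 21095129 in WTD-fed mice and 18180048.5 in atorvastatin-treated mice. Levels are given in CPM (counts scaled to a common library size), with library sizes scaled by the TMM method. A count of 0 allows a level of up to 0.0782 to 0.204 CPM depending on the library (3 counts), which covers counting error only. In 8 libraries, more than 20% of the genes that averaged 1 to 2 CPM across the group of that mouse (1288 genes in chow-fed mice) had 0 counts, and these are called low-capture libraries. They were chow mice 2, 5 and 6, WTD mice 8, 9, 10 and 16 and atorvastatin mouse 8, and the share of such genes at 0 ran from 0% to 59.7% over the 42 libraries. The chow library of mouse 1 also stood apart. Its 7 plasma cell markers summed to 1512 CPM as compared to 45.03 CPM in the next chow mouse, and its 8 B cell markers to 86.3 CPM as compared to 25.3 CPM. Hepatocyte markers were abundant in every group, with mean Alb levels of 95000 ± 13410 CPM in chow-fed and 50780 ± 9775 CPM in WTD-fed mice (SD, n = 10 and 16).

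All 10 genes were weakly expressed, and most zeros lay in the low-capture libraries. These libraries were defined by zeros of weakly expressed genes, which include those of the 10 that averaged 1 to 2 CPM in a group. The gathering of zeros there is therefore in part built into the definition. Of the 420 values (10 genes in 42 mice), 49 were 0 counts, which is 11.7%. The share at 0 was 24% in chow-fed mice (24 of 100 values), 12.5% in WTD-fed mice (20 of 160) and 3.12% in atorvastatin-treated mice (5 of 160). The 8 low-capture libraries held 35 of the 49 zeros. In the other 34 libraries the shares at 0 were 4.29% (3 of 70 values), 5.83% (7 of 120) and 2.67% (4 of 150), so that the order of chow and WTD turned. All 10 genes were detected in 5 of 10 chow-fed, 7 of 16 WTD-fed and 12 of 16 atorvastatin-treated mice. Cd8b1 and Gzma had most zeros (10 mice each), followed by Cd3d (7), Cd4 (5), Cd3e and Nkg7 (4 each) and Cd3g, Cd8a and Cxcr6 (3 each). Lck was detected in all 42 mice. In chow mouse 2, which missed 59.7% of the weakly expressed genes, the other 9 genes were at 0 while Lck had 167 counts.

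**Figure D1:**
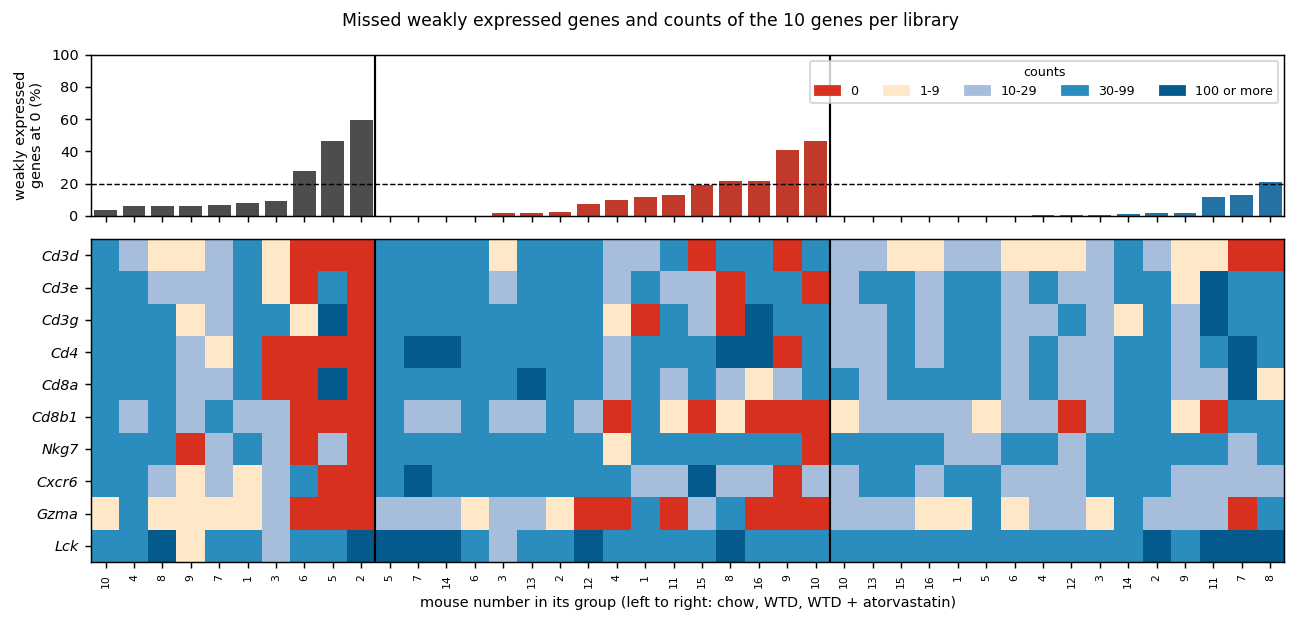
Upper panel, percent of genes averaging 1 to 2 CPM across the group that had 0 counts, per library (bars; dashed line at 20%). Lower panel, counts of the 10 genes in the same libraries by colour class, sorted by the upper value within each group and numbered by mouse; red cells (0 counts) gather in the libraries with the highest bars, with 35 of 49 zeros in 8 libraries. The bars count zeros of weakly expressed genes, some of the 10 among them, so that this is in part built in.

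The comparison of WTD-fed with chow-fed mice asks how the diet changed the liver's lymphocyte transcripts. Fitted levels were higher in WTD-fed mice for 9 of the 10 genes and lower for Cd8b1, with a median log2 fold change of 0.67 as compared to 0.03 over all 15574 genes tested. The largest differences were those of Cd4 (1.69), Gzma (1.01) and Cxcr6 (1.01). None of the 10 passed an adjusted p of 0.01 (edgeR quasi-likelihood test, Benjamini-Hochberg over all genes tested), while 17.5% of all genes tested were called higher and 16.0% were called lower. At an unadjusted p of 0.05, 1 gene passed with edgeR (Cd4), 2 with DESeq2 and 5 with limma-voom. Of all 15574 genes tested, 7795 passed it with edgeR. DESeq2 called 1 of the 10 and limma-voom 2 at an adjusted p of 0.01. In all, they called 5875 and 6509 genes, as compared to 5224 with edgeR. The median log2 fold change of the 10 with limma-voom was 1.02. The errors of the 10 genes were wide. Among the 3069 tested genes with mean counts in the range of the 10 (14.4 to 83.4), 14.5% were called and the median standard error (SE) of the log2 fold change was 0.604, as compared to 0.172 over all genes tested. In whole liver, fewer cells of a type and less RNA per cell cannot be told apart.

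**Figure D2:**
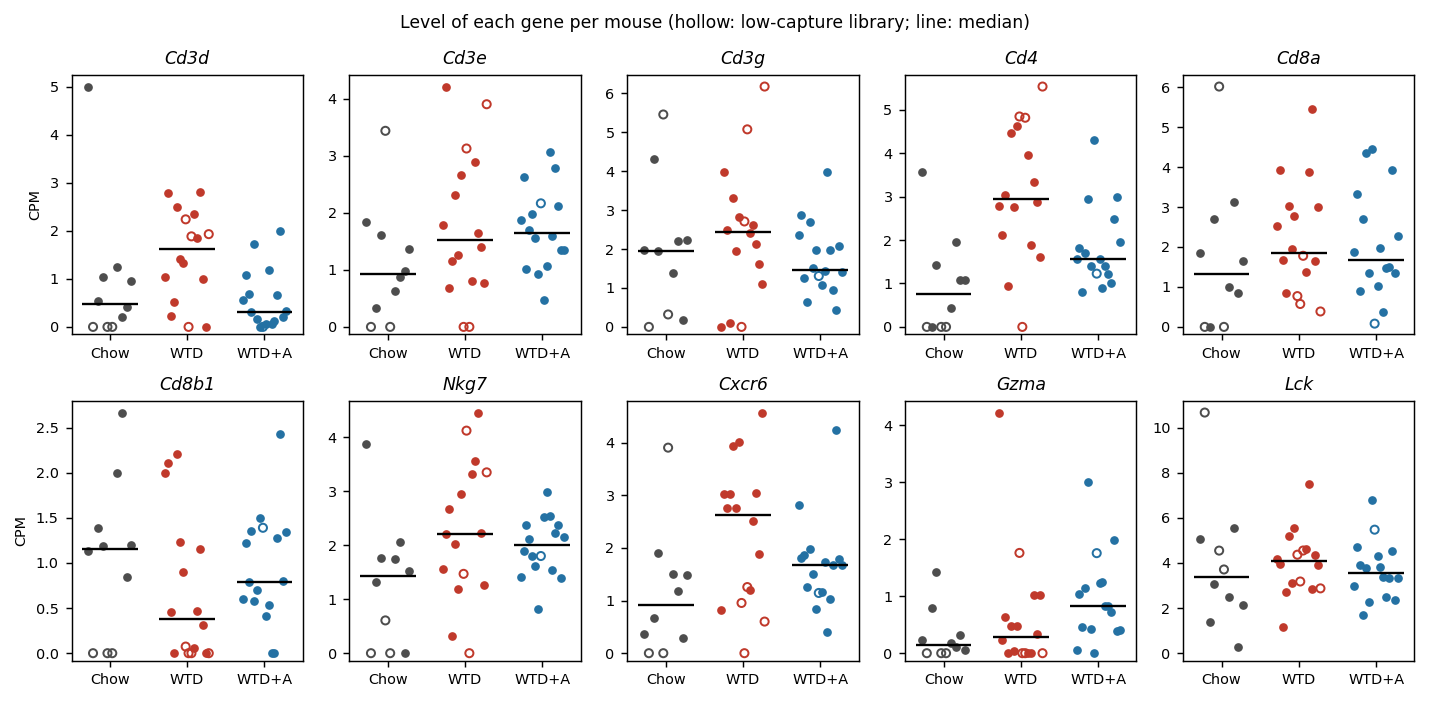
Level of each of the 10 genes in CPM (vertical axis, linear, own scale per panel) in each mouse of the 3 groups (WTD+A, WTD with atorvastatin); hollow points are low-capture libraries and lines are medians. The groups overlap in every panel, with Cd4 showing the widest distance between the chow median (0.756 CPM) and the WTD median (2.95 CPM).

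The genes of the CD3 chains, which carry the signal of the T cell receptor, did not pass the threshold. Cd3d ranged from 0 to 5.00 CPM in chow-fed mice (median 0.476), from 0 to 2.80 CPM in WTD-fed mice (median 1.63) and from 0 to 1.99 CPM in atorvastatin-treated mice (median 0.318). The highest value of all was that of chow mouse 1, and all other chow-fed mice were at or below 1.25 CPM. The log2 fold change of WTD against chow was 0.66 ± 0.78 (SE, 95% interval -0.91 to 2.23, edgeR adjusted p = 0.522), and it was 1.59 without chow mouse 1. Cd3e ranged from 0 to 3.44 CPM on chow (median 0.927), 0 to 4.21 CPM on WTD (median 1.53) and 0.477 to 3.06 CPM with atorvastatin (median 1.65). Its groups overlapped over most of their range, and WTD differed from chow by 0.68 on the log2 scale (95% interval -0.50 to 1.87, edgeR adjusted p = 0.365). Cd3g ranged from 0 to 5.46 CPM (median 1.95), 0 to 6.18 CPM (median 2.45) and 0.436 to 3.98 CPM (median 1.47) in the same order. The highest chow and WTD values of Cd3g came from low-capture libraries (chow mouse 5 and WTD mouse 16), which also gave some of the zeros. On the log2 scale WTD differed from chow by 0.26 (95% interval -0.90 to 1.43, edgeR adjusted p = 0.748).

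Among the coreceptors, Cd4, which marks helper and regulatory T cells, had the largest fitted difference between diets. It was not tested against the CD8 genes of cytotoxic T cells. Cd4 ranged from 0 to 3.57 CPM in chow-fed mice (median 0.756), from 0 to 5.53 CPM in WTD-fed mice (median 2.95) and from 0.792 to 4.30 CPM in atorvastatin-treated mice (median 1.56). It was at 0 in 4 of 10 chow-fed mice, 3 of them low-capture libraries, and in 1 of 16 WTD-fed mice, also a low-capture library. Chow mouse 1 was again the highest of its group, and 12 of 16 WTD-fed mice lay above the next highest chow-fed mouse (1.95 CPM). The mean was 3.10 ± 1.55 CPM on WTD (SD, n = 16) and 0.953 ± 1.15 CPM on chow (SD, n = 10), a fitted difference of 3.22-fold (log2 1.69 ± 0.60 SE, 95% interval 0.48 to 2.90, edgeR adjusted p = 0.0191). Without chow mouse 1 the log2 fold change was 2.20 (adjusted p = 0.00333) and without WTD mouse 9 it was 1.78 (adjusted p = 0.00697), both past the threshold. Without the 8 low-capture libraries it was 1.07 (adjusted p = 0.0453), and without these and chow mouse 1 it was 1.51 (adjusted p = 0.00618).

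Cd8a ranged from 0 to 6.02 CPM on chow (median 1.32), 0.386 to 5.46 CPM on WTD (median 1.86) and 0.0817 to 4.45 CPM with atorvastatin (median 1.69). The groups overlapped, the chow value of 6.02 CPM came from low-capture mouse 5, and all 16 WTD-fed mice had counts as compared to 7 of 10 chow-fed mice. Between WTD and chow it differed by 0.37 on the log2 scale (95% interval -0.79 to 1.52, edgeR adjusted p = 0.642), and with limma-voom by 1.47 (adjusted p = 0.0395). Cd8b1, which encodes the partner chain of CD8 alpha on conventional cytotoxic T cells, ranged from 0 to 2.66 CPM on chow (median 1.16), 0 to 2.21 CPM on WTD (median 0.383) and 0 to 2.43 CPM with atorvastatin (median 0.794). It was the only one of the 10 with a lower fitted level on WTD than on chow, at a log2 fold change of -0.60 (95% interval -2.21 to 1.01, edgeR adjusted p = 0.577). In the 7 chow-fed mice outside the low-capture libraries it was detected each time, at 0.843 to 2.66 CPM, whereas 2 of the 12 such WTD-fed mice were at 0.

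Lck, the kinase that starts signalling behind the receptor, had the lowest fitted variation of the genes, though its chow values spread widely. It ranged from 0.281 to 10.7 CPM on chow (median 3.40), 1.18 to 7.48 CPM on WTD (median 4.08) and 1.70 to 6.79 CPM with atorvastatin (median 3.57). The highest chow value was that of low-capture mouse 2, and the groups overlapped almost entirely. Without the low-capture libraries the means of Lck were 2.85 ± 1.89 CPM on chow (SD, n = 7) and 4.09 ± 1.6 CPM on WTD (SD, n = 12). The log2 fold change of WTD against chow was 0.04 ± 0.32 (SE, 95% interval -0.59 to 0.68, edgeR adjusted p = 0.925), and with limma-voom it was 0.82 (adjusted p = 0.0474). Its biological coefficient of variation in the fit was 51.05%, the lowest of the 10, as compared to 136% for Gzma and a median of 29.08% over all genes tested.

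The genes of cytotoxic granules did not pass the threshold either. Nkg7, a granule membrane protein of NK and cytotoxic T cells, ranged from 0 to 3.87 CPM on chow (median 1.42), 0 to 4.45 CPM on WTD (median 2.21) and 0.809 to 2.98 CPM with atorvastatin (median 2.00). All 16 atorvastatin-treated mice expressed it within a narrow range (coefficient of variation 27.7%), while 3 chow-fed mice and 1 WTD-fed mouse were at 0. As compared to chow, the level on WTD differed by 0.83 on the log2 scale (95% interval -0.29 to 1.94, edgeR adjusted p = 0.234). Gzma, the granzyme A protease, ranged from 0 to 1.42 CPM on chow (median 0.145), 0 to 4.22 CPM on WTD (median 0.289) and 0 to 3.01 CPM with atorvastatin (median 0.830). It was at 0 in 3, 6 and 1 mice of the respective groups, and WTD mouse 1 alone stood at 4.22 CPM, above the next WTD-fed mouse (1.76 CPM). The log2 fold change of WTD against chow was 1.01 (95% interval -0.77 to 2.79, edgeR adjusted p = 0.374), and it was 0.35 without WTD mouse 1.

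Cxcr6, the homing receptor of liver-resident lymphocytes, was the only gene besides Cd4 that was called in any alternative. It ranged from 0 to 3.90 CPM on chow (median 0.920), 0 to 4.57 CPM on WTD (median 2.63) and 0.398 to 4.24 CPM with atorvastatin (median 1.67). The chow value of 3.90 CPM was that of low-capture mouse 6, and the other 9 chow-fed mice were at or below 1.90 CPM, a level exceeded by 9 of 16 WTD-fed mice. The log2 fold change of WTD against chow was 1.01 ± 0.56 (SE, 95% interval -0.12 to 2.14, edgeR adjusted p = 0.144). Without the low-capture libraries the means were 2.79 ± 1.10 CPM on WTD (SD, n = 12) and 1.05 ± 0.625 CPM on chow (SD, n = 7). The log2 fold change was then 1.40 and passed the threshold (edgeR adjusted p = 0.00415). When chow mouse 1 was left out too, it was 1.25 (edgeR adjusted p = 0.0117). The gene of its ligand, Cxcl16, rose from 18.5 ± 5.85 CPM on chow to 69.4 ± 14.5 CPM on WTD (SD, n = 10 and 16, log2 fold change 1.91, edgeR adjusted p = 1.06e-15).

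**Figure D3:**
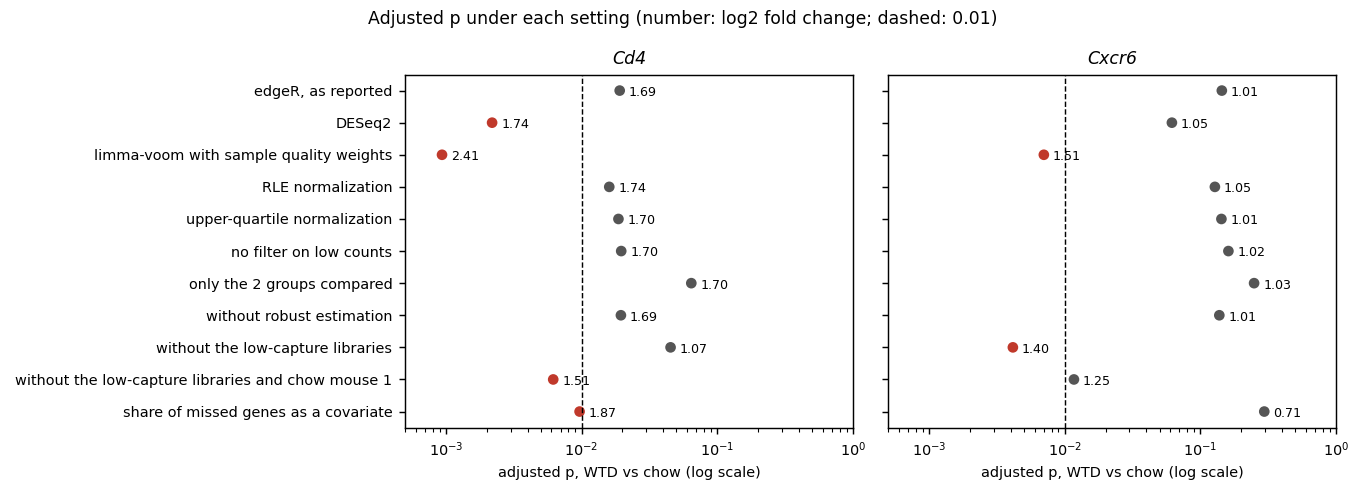
Adjusted p of WTD against chow (horizontal log axis, dashed line at 0.01) for Cd4 and Cxcr6 under each test, normalization and set of libraries, with the log2 fold change printed beside each point and values under 0.01 in red. Cd4 lies between 0.000936 and 0.0644 and Cxcr6 between 0.00415 and 0.296, so that both cross the line depending on the setting.

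The comparison of atorvastatin-treated with WTD-fed mice asks whether the statin changed these transcripts under the same diet. Fitted levels were lower for 8 of the 10 genes and higher for Cd8b1 and Gzma, with a median log2 fold change of -0.17 as compared to 0.00 over all genes tested. None of the 10 was called by the edgeR test at an adjusted p of 0.01, while 4.84% of all genes tested were called higher and 2.26% lower. With edgeR, 1 gene (Cd3d) passed an unadjusted p of 0.05, as did 3822 of all 15574 genes tested. With limma-voom, 4 of the 10 passed it. DESeq2 called 0 of the 7 genes for which it gave an adjusted p, and limma-voom 0 of 10. In all, they called 1400 and 3145 genes. Of the 3069 genes in the same range of counts, edgeR called 0.456%. The largest difference was that of Cd3d, from 1.49 ± 0.953 CPM on WTD to 0.571 ± 0.623 CPM with atorvastatin (SD, n = 16 each). Its log2 fold change was -1.38 ± 0.69 (SE, 95% interval -2.76 to -0.01, edgeR adjusted p = 0.201), and it lay between -1.64 and -1.29 when any mouse was left out. It reached -2.15 when the percent of weak genes at 0 entered as a covariate, and the lowest adjusted p over the alternatives was 0.0128 (limma-voom). Cd3e and Cd3g, whose products are assembled with CD3 delta, had log2 fold changes of -0.05 (95% interval -1.06 to 0.96) and -0.45 (95% interval -1.47 to 0.56). Cd4 differed by -0.76 (95% interval -1.75 to 0.24, edgeR adjusted p = 0.374) and Cxcr6 by -0.43 (95% interval -1.39 to 0.52, edgeR adjusted p = 0.657). For Cd8a, Nkg7 and Lck the log2 fold changes were -0.11, -0.22 and -0.11. The interval was narrowest for Lck (-0.67 to 0.44). The intervals of Cd8b1 (log2 fold change 0.44, -0.99 to 1.87) and Gzma (0.59, -0.90 to 2.09) were the widest.

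As compared to chow-fed mice, atorvastatin-treated mice had higher fitted levels of 6 genes and lower levels of 4, with a median log2 fold change of 0.41 (0.04 over all genes tested). None of the 10 was called by edgeR, where 14.2% of all genes tested were called higher and 10.7% lower. At an unadjusted p of 0.05, 0 of the 10 passed, as compared to 6642 of all 15574 genes tested. DESeq2 and limma-voom also called 0 of the 10, with 0 and 3 of them under an unadjusted p of 0.05. In all, they called 4516 and 4974 genes. Gzma had the largest difference, at a log2 fold change of 1.61 (95% interval -0.22 to 3.43, edgeR adjusted p = 0.174), with medians of 0.145 and 0.830 CPM. Cd4 followed at 0.93 (95% interval -0.24 to 2.11, edgeR adjusted p = 0.225), and Cd3d lay lower at -0.72 (95% interval -2.25 to 0.81, edgeR adjusted p = 0.504) but at 0.21 without chow mouse 1. The 3 comparisons share mice and are not independent of each other.

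**Figure D4:**
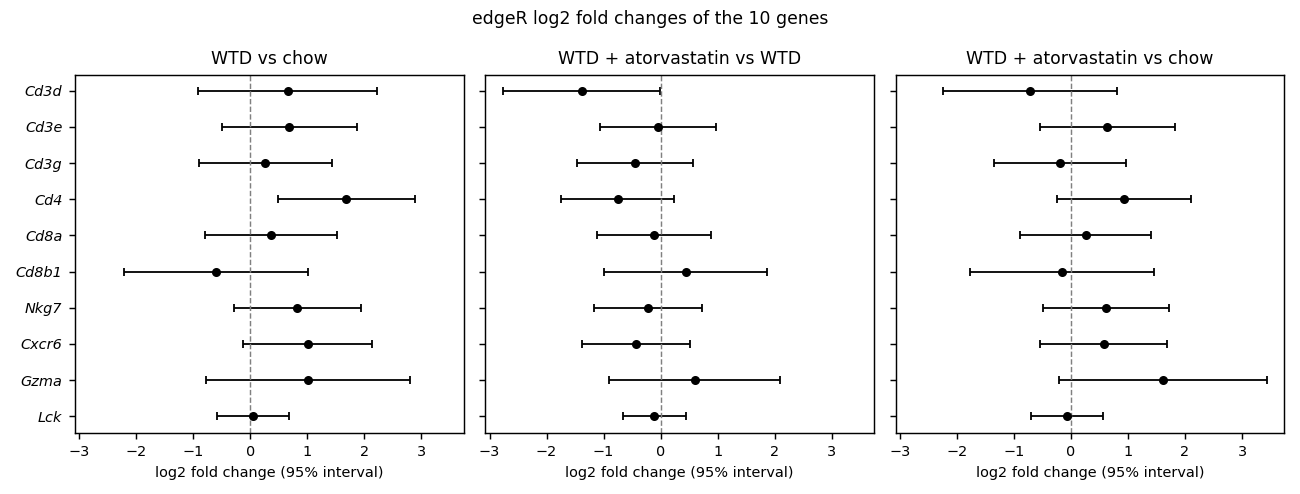
Fitted log2 fold changes of the 10 genes (points) with 95% intervals (bars) in the 3 comparisons, dashed line at no difference. Only the interval of Cd4 in WTD against chow (0.48 to 2.90) and that of Cd3d in atorvastatin against WTD (-2.76 to -0.01) exclude 0, and neither gene passed an adjusted p of 0.01.

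Per kilobase of exon, the levels of the genes could be set side by side. Nkg7 was the most abundant in each group, at 1.41 ± 1.32 CPM per kilobase on chow, 2.51 ± 1.41 on WTD and 2.16 ± 0.597 with atorvastatin (SD, n = 10, 16 and 16). Lck followed at 1.33 ± 0.989, 1.37 ± 0.488 and 1.26 ± 0.441 CPM per kilobase. On chow Cd4 was the least abundant (0.236 ± 0.286 CPM per kilobase), next to Cd3e (0.271 ± 0.254) and Gzma (0.312 ± 0.455), whose values overlapped within 1 SD. On WTD the mean of Cd4 was 0.768 ± 0.385 and that of Cd3e 0.439 ± 0.316 CPM per kilobase, the lowest of the 10. The summed level of the 10 genes had a median of 13.1 CPM on chow (5.25 to 24.9), 19.7 CPM on WTD (9.59 to 29.4) and 16.1 CPM with atorvastatin (12.3 to 26.5), and the ranges overlapped.

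Within groups, the 10 genes varied together only weakly from mouse to mouse. After the group means of log2 CPM were subtracted, Spearman correlations over the 42 mice were positive for 41 of the 45 pairs, with a median rho of 0.207 and a range of -0.194 to 0.512. Cd8a with Cd8b1, the chains of the CD8 heterodimer, gave the highest value. Among the CD3 genes, Cd3e with Cd3g gave 0.468, Cd3d with Cd3e 0.254 and Cd3d with Cd3g 0.186. Without the low-capture libraries (34 mice), 42 of 45 pairs were positive and the median was 0.195, and Cd4 with Cd8a gave the highest value (0.532). All values of a mouse come from the same library, so that they share its depth and its capture. The tested genes most like the mean z-score of the 10 over all 42 mice were A330032B11Rik (rho 0.68), Ikzf2 (0.68), which encodes the transcription factor Helios of regulatory T cells, Slc16a3 (0.66), Zik1 (0.63), Prrx2 (0.62), Rpa3 (0.62), Napsa (0.62), Ms4a4b (0.62), a T cell surface protein, Tgfb3 (0.61) and Nme5 (0.61). Without the low-capture libraries they were Sh2d2a (0.66), which encodes a T cell adaptor protein, Rarg (0.64), Mbp (0.62), Ly86 (0.62), Ptprc (0.61), which encodes the leukocyte antigen CD45, Ggh (0.61), Bicd1 (0.61), Gm43672 (0.59), AU020206 (0.59) and Gimap4 (0.59), a lymphocyte GTPase, and 0 genes were shared between these sets of 10.

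Other genes of the T cell receptor pathway were examined in lists. Their edgeR counts stand beside the 17.5% of all genes tested that were called higher and the 16.0% called lower. At an unadjusted p of 0.05, 7795 of all 15574 genes tested passed with edgeR. DESeq2 called 5875 and limma-voom 6509 genes in all. In WTD against chow, 0 of 8 tested genes of receptor chains were called by edgeR (median log2 fold change 0.20, 1 at an unadjusted p of 0.05, and 0 by DESeq2 and by limma-voom). Trac and Trbc2, constant chains of the alpha beta receptor, had log2 fold changes of 0.21 and 0.20, and Trdc, the delta chain, had the smallest p (2.07, adjusted p = 0.0729, and 1.11 with adjusted p = 0.352 without the low-capture libraries). Of 13 tested signalling genes, 3 rose and 1 fell (median 0.34). Ptprc (1.55, adjusted p = 8.16e-16) and Lcp2 (1.71, adjusted p = 2.4e-10), which encodes the adaptor SLP-76, are expressed by leukocytes of many kinds. Themis, which encodes a protein of T cell development, rose from 1.05 ± 1.11 to 4.47 ± 2.30 CPM (2.07, adjusted p = 0.000987), and lost the call without the low-capture libraries (1.28, adjusted p = 0.0277). Zap70, the kinase that binds the phosphorylated CD3 chains, fell from 22.8 ± 7.17 to 7.77 ± 2.64 CPM (-1.55, adjusted p = 2.53e-11), opposite to the fitted direction of the 3 CD3 genes. It was lower on WTD under DESeq2 (-1.52), limma-voom (-1.70) and without the low-capture libraries (-1.48), each at an adjusted p under 0.01. On chow, the level of Zap70 was well above those of Lck (3.89 ± 2.90 CPM) and Trac (1.99 ± 1.80 CPM). Which liver cells its transcripts came from was not tested.

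Of 11 tested costimulatory and inhibitory receptors, only Havcr2, the inhibitory receptor TIM-3 found on T cells and macrophages, rose (log2 fold change 1.81, adjusted p = 0.000597), and the median of the list was 0.82. Tnfrsf9 and Icos, costimulatory receptors of activated T cells, had log2 fold changes of 2.29 (adjusted p = 0.0362) and 1.25 (adjusted p = 0.0549). Of 10 tested cytotoxic effector genes other than Nkg7 and Gzma, 0 were called by edgeR and 0 passed an unadjusted p of 0.05 (median log2 fold change 0.53). DESeq2 called 1 of 13 (Gzmc, which edgeR did not test, median 0.69) and limma-voom 1 of 10 (Gzmk, median 1.045). Without chow mouse 1, Gzmk and Eomes were called by edgeR, and Gzmk, which encodes granzyme K, had a mean of 0.0953 ± 0.301 CPM on chow and 0.448 ± 0.783 CPM on WTD with that mouse included. Of 10 tested NK and innate lymphoid receptors, 1 was called and the median was 1.47, while DESeq2 called 4 of 13 (median 1.07), limma-voom 3 of 10 (1.25), and edgeR without the low-capture libraries 2 of 10 (0.98). Klrd1, which encodes the receptor CD94, rose from 0.976 ± 1.08 to 3.16 ± 1.48 CPM (log2 fold change 1.68, adjusted p = 0.00614), and missed the threshold without the low-capture libraries (1.37, adjusted p = 0.0135). Il2rb (0.92, adjusted p = 0.0193), Klrc2 (2.29, adjusted p = 0.03) and Klrk1 (1.01, adjusted p = 0.0395), which encode a cytokine receptor chain and activating receptors, lay between adjusted p values of 0.01 and 0.05. Of 13 naive, regulatory and homing genes, 3 rose and 1 fell (median 1.17), and 5 rose and 1 fell without the low-capture libraries. Il7r, the interleukin-7 receptor, rose from 1.16 ± 1.01 to 8.63 ± 3.76 CPM (2.89, adjusted p = 1.37e-06) and Itgal, the integrin chain of LFA-1, by 1.58 (adjusted p = 1.23e-11), while S1pr1, a receptor that guides lymphocyte egress and is abundant in endothelium, fell by 0.48 on the log2 scale (adjusted p = 4.5e-05).

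The ligands of CXCR6 and of the coreceptors were listed as well, and all 8 were called in WTD against chow (6 higher, 2 lower). The genes of the MHC class II pathway, H2-Ab1, H2-Aa, H2-Eb1 and Cd74, the invariant chain, rose in WTD-fed mice by 2.41 (H2-Eb1) to 2.67 (H2-Aa) on the log2 scale, with edgeR adjusted p from 4.88e-24 (H2-Ab1) to 5.33e-19 (H2-Eb1). The class I genes, ligands of CD8, moved little and in both directions, with H2-D1 at 0.23, H2-K1 at -0.30 and B2m at -0.29, all called. With atorvastatin, Cxcl16 (-0.61, adjusted p = 0.00022), H2-Ab1 (-0.53), H2-Aa (-0.55), H2-Eb1 (-0.57) and Cd74 (-0.50) fell as compared to WTD alone. In the same comparison, 0 genes of the 6 lists of receptor chains, signalling, costimulation, cytotoxic effectors, NK receptors and naive or homing genes were called by edgeR, where 4.84% of all genes tested were called higher and 2.26% lower, and 0.456% of those in the range of counts of the 10 genes were called at all. At an unadjusted p of 0.05, 2 signalling genes and 2 homing genes passed with edgeR and 0 in the other lists, as compared to 3822 of all 15574 genes tested. DESeq2 called 0 of those in these 6 lists for which it gave an adjusted p. Of its 3145 calls over all genes, limma-voom had 2 among the signalling genes (Ptprc, Zap70) and 3 among the homing genes (Il2ra, Il7r, S1pr1).

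**Figure D5:**
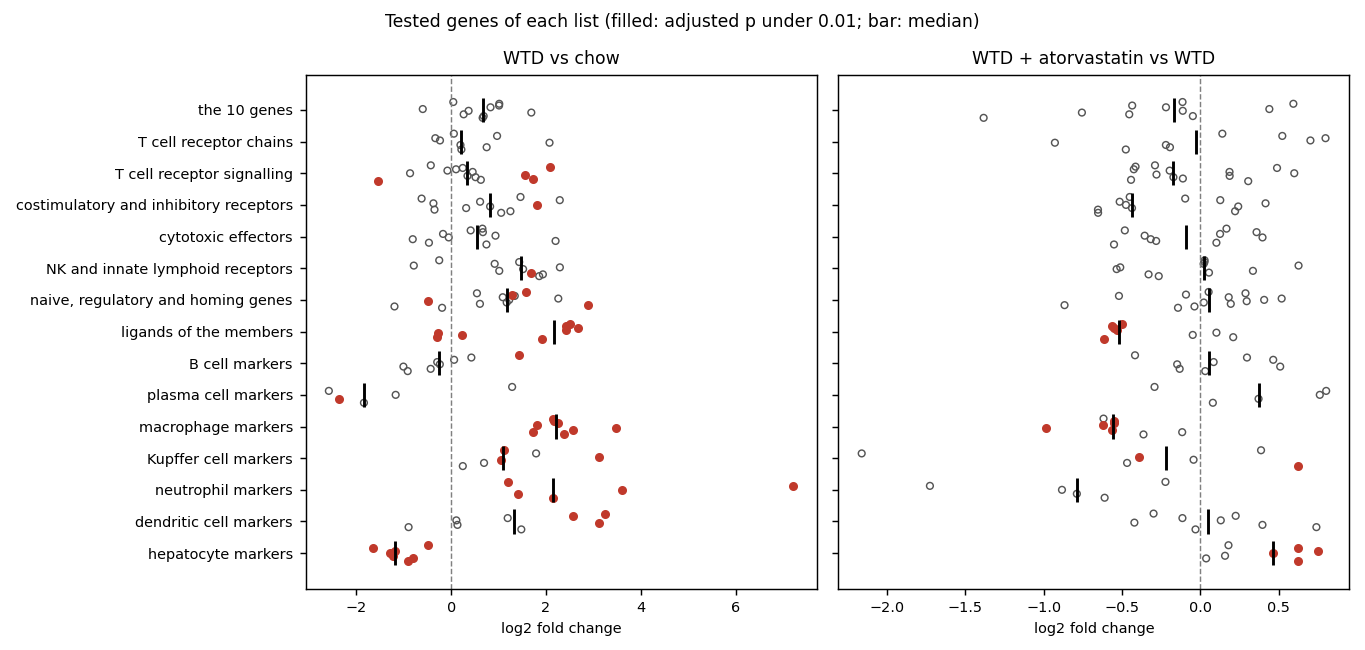
Log2 fold changes of every tested gene in each list (points, filled red at an adjusted p under 0.01; bars, list medians) for WTD against chow (left) and WTD with atorvastatin against WTD (right). The 10 genes have medians of 0.67 and -0.17 with no filled point, next to macrophage marker medians of 2.22 and -0.56.

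Markers of other cells that the liver holds were measured in the same libraries. With edgeR, 17.5% of all genes tested were called higher and 16.0% lower in WTD against chow. In atorvastatin against WTD, 4.84% were called higher and 2.26% lower. All 8 tested macrophage markers rose in WTD-fed mice (median 2.22) and 5 of them fell with atorvastatin (median -0.56), and their summed level had medians of 359 CPM on chow (298 to 430), 2164 CPM on WTD (1216 to 2962) and 1270 CPM with atorvastatin (959 to 1914). The medians of Cd4, Cd8a, Nkg7, Cxcr6 and Lck stood in the same order over the 3 groups as this sum. Those of Cd3d, Cd3e, Cd3g, Cd8b1 and Gzma did not, and the part of macrophages in the results was not tested. Of the 6 Kupffer cell markers 3 rose (median 1.08), as did 5 of 5 tested neutrophil markers (median 2.15), and 3 of 8 dendritic cell markers (Itgax, Cd209a and Ccr9, median 1.33). Clec9a and Xcr1, which define the dendritic cells that carry CD8 alpha, were not called, at 0.13 and -0.90. Of the B cell markers 1 of 8 (Cd22) rose, and their median was -0.27 but 0.27 without chow mouse 1. Of 5 tested plasma cell markers Ighm alone was called, at -2.37 (adjusted p = 0.000827), but it lay at 0.52 without chow mouse 1 (adjusted p = 0.126). The 7 hepatocyte markers all fell (median -1.19). Igkc and Itgam, defining markers of plasma cells and myeloid cells, were listed at 0 counts in all mice.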

How the data were processed

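Liver RNA was isolated from snap-frozen tissue and strand-specific mRNA libraries were sequenced as read pairs, 1 library for each of 42 mice. The authors trimmed the reads with Trimmomatic, aligned them to GRCm38 with STAR 2.5 and deposited the counts per gene from HTSeq-count 0.6.1p1, without normalization. The strand setting of the counting is not given in the sources used here, so that Cd3e and its antisense neighbour may share reads. The 42 single tables were identical to the merged table, and lines that name no gene were left out. Symbols, positions and exon lengths came from GENCODE vM21 (54409 of 54446 identifiers), and promoters from RefSeq (8 of 10 genes). Cd4 and Cd8b1 had no entry.

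Groups followed the labels (10, 16 and 16 mice, each animal a replicate). The filter filterByExpr (counts of at least 10, total of at least 15) left 15574 genes, which include all 10 examined. After TMM scaling, edgeR 4.0.16 (R 4.3.3) fitted all 42 mice together, with robust quasi-likelihood tests for each pair of groups. P-values were adjusted by Benjamini-Hochberg over all genes tested and called at 0.01. The study used this threshold too, but on DESeq2 results. The SE of a log2 fold change was derived from its size and the F statistic of the edgeR test. Intervals are at 95%, symmetric t intervals built on this SE, and both are approximate. DESeq2 1.42.0 and limma-voom 3.58.1 were alternatives. The test was checked on counts simulated from its own fitted means and dispersions. No low-capture libraries were modelled, so that the check does not cover their zeros. Total counts on genes were 15661381 to 36224054 per library. No 2 libraries of a group agreed within sampling noise, the lowest chi-square per gene being 10.69. The 10 genes and the 14 other lists were chosen with earlier results of these data known, and therefore do not stand as independent evidence. Beside the 10, each list was given by its counts and by up to 4 genes with the smallest p in WTD against chow. The values of 1 gene that this rule selects are not reported here. Cxcl16 was named as the ligand of CXCR6, and genes named for a changed call (Eomes, Gzmc, Il2ra), Trac, Trbc2, the marker genes of other cells and those at 0 were chosen after their values were seen. The setting without the low-capture libraries and chow mouse 1, and the recounts of the lists, were added after seeing the data.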

Additional observations from a re-analysis of the deposited data

Results flagged for a closer look

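In 5 of the 10 genes, 1 chow-fed mouse lay apart from the other 9, as judged by Dixon's ratio for 10 values (the gap to the nearest value divided by the range, above 0.466). These were Cd3d in chow mouse 1 (5.00 CPM, next 1.25 CPM), Nkg7 in chow mouse 1 (3.87 CPM, next 2.05 CPM), Cd8a in chow mouse 5 (6.02 CPM, next 3.12 CPM), Cxcr6 in chow mouse 6 (3.90 CPM, next 1.90 CPM) and Lck in chow mouse 2 (10.7 CPM, next 5.53 CPM). Chow mice 2, 5 and 6 are the 3 low-capture libraries of the group, and chow mouse 1 is the library with 1512 CPM of plasma cell markers. The part of either in these values was not tested. For normally distributed values, chance flags about 1 in 20 groups. These levels cannot fall below 0 and include zeros, and every flagged value was the highest of its group, so that this rate may not hold for them. The groups of 16 mice were not examined in this way.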

How the results depend on the processing

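The number of the 10 genes called in WTD against chow was 0 with edgeR and rose to 1 with DESeq2 (Cd4, log2 fold change 1.74, adjusted p = 0.00219), 2 with limma-voom and sample quality weights (Cd4 2.41, Cxcr6 1.51), 1 at an adjusted p of 0.05 (Cd4), 1 without the low-capture libraries (Cxcr6), 1 without these and chow mouse 1 (Cd4, chosen after seeing the data) and 1 when the percent of weak genes at 0 entered as covariate (Cd4 1.87). Leaving out 1 mouse gave 0 to 1, with Cd4 called without chow mouse 1 (2.20) and without WTD mouse 9 (1.78). In the other comparisons 0 were called under every alternative. The calls over all genes in WTD against chow were 5224 with edgeR, 5875 with DESeq2, 6509 with limma-voom and 5541 without the low-capture libraries. In atorvastatin against WTD, limma-voom called 3145 genes, as compared to 1106 with edgeR. RLE or upper-quartile scaling, no filter, a fit of only the groups compared (Gzma not tested in WTD against chow), no robust estimation and a fold change threshold changed no call. The share of values at 0 moved to 4.29% (chow) and 5.83% (WTD) without the low-capture libraries, and 0 of the 10 most similar genes stayed.

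Of 359 refitted log2 fold changes 10 changed sign, none of them called. For atorvastatin against WTD these were Cd3e with limma-voom (0.051), Cd8b1 without the low-capture libraries (-0.0054) and also without chow mouse 1 (-0.0044), and Lck with the covariate (0.020). For atorvastatin against chow they were Cd3g (0.11) and Lck (0.58) with limma-voom, Lck without the low-capture libraries (0.33), also without chow mouse 1 (0.53) and with the covariate (0.32), and Cxcr6 with the covariate (-0.069). Leaving out 1 mouse, ranges that crossed 0 were -0.10 to 0.35 for Lck in WTD against chow, -0.14 to 0.088 for Cd3e and -0.23 to 0.035 for Cd8a in atorvastatin against WTD, and -0.98 to 0.21 for Cd3d, -0.34 to 0.12 for Cd3g, -0.32 to 0.12 for Cd8b1 and -0.21 to 0.24 for Lck in atorvastatin against chow. The causes were not tested. Mean counts of the 10 genes were 14.4 to 83.4 per library and their fitted biological coefficients of variation 51.05% to 136%, so that spread between libraries beyond counting entered their errors. No paired analysis was possible because replicate numbers only name individual animals, the chow-fed mice carry another identifier prefix, and the labels state no litter, batch or day that mice of different groups share.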
